A study of Mus musculus with 18 samples.

Results

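Genes of the transcriptional programme for mitochondrial biogenesis were followed in mouse heart. The 10 genes were picked by symbol from the deposited table and are the coactivators Ppargc1a and Ppargc1b, the estrogen-related receptors Esrra, Esrrb and Esrrg, the fatty acid receptors Ppara and Ppard, and the nuclear factors Nrf1, Tfam and Gabpa. All 10 were among the 24341 genes in the table, and all 10 were among the 12587 genes with enough signal to test. The hearts came from C57BL/6 mice aged 12 weeks of 2 genotypes, wild-type (WT) and a cardiac-specific knockout (labelled cKO) of Med13, a subunit of the Mediator complex. Which promoter drives the deletion is not stated in the sources at hand. Each genotype was fed normal chow (NC), a propylthiouracil (PTU) diet from 8 weeks of age for 4 weeks, or that PTU diet followed by 3 daily injections of triiodothyronine (T3). PTU blocks the making of thyroid hormone and T3 is its active form. There were 18 libraries in 6 groups of 3, and the design asks how the heart answers loss and return of the hormone in each genotype. Since the labels do not state that libraries of a group are from different animals, the spread behind the p-values may be partly technical.

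Mitochondrial biogenesis needs gene products from the nucleus and from the small mitochondrial genome. PGC-1 alpha (from Ppargc1a) and PGC-1 beta (from Ppargc1b) do not bind DNA themselves but dock on nuclear receptors such as ERR alpha, ERR gamma and PPAR alpha and on the factors NRF1 and GABP, and raise transcription of genes for oxidative phosphorylation and fatty acid oxidation. NRF1 and GABP in turn are classical activators of Tfam, whose protein packages mitochondrial DNA and starts its transcription. The adult heart, which lives mainly on fatty acid oxidation, is rich in this machinery, and thyroid hormone is a classical stimulus of mitochondrial biogenesis. In other tissues Ppargc1a is itself known as a target of thyroid hormone.

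Short stretches of promoter sequence show where letters recognised by 2 of these factors, GABP and NRF1, stand near annotated starts of other genes of the group. RefSeq windows of 250 bases before a transcription start (build GRCm38.p6) were searched on both strands for 9 of the 10 genes, 14 windows in all. Ppargc1b was left out of this search. The GABP site CCGGAAGT was found in the window of Tfam alone and stands in 2.88% of 32851 windows over all genes. The NRF1 core GCGCATGC was found in windows of Esrra and Ppara and stands in 2.26% of all windows. Capitals mark the match, which before Esrra reads on the reverse strand as GCATGCGC and before Ppara is an overlapping pair on both strands. The stretches run 5′ to 3′ along the gene, at chr10:71238073-71238102 (reverse strand) for Tfam, chr19:6921824-6921853 (reverse strand) for Esrra and chr15:85735735-85735764 (forward strand) for Ppara. Each lies before a RefSeq start, but those of Tfam and Ppara lie inside the wider GENCODE gene, and the RefSeq start of Tfam is 236 bases from the nearest GENCODE start.
Tfam, GABP site: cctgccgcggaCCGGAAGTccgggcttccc
Esrra, NRF1 core: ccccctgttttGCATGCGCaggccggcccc
Ppara, overlapping NRF1 cores: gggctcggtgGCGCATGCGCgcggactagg
The ERR element TCAAGGTCA, found in 0.39% of all windows, the shorter ERR core AAGGTCA in 4.08% and the receptor half-site AGGTCA in 14.0% (each contained in the one before) matched none of the 14 windows. A match is a description of letters and was not tested as a binding site.

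Levels are given as FPKM, fragments scaled to transcript length and to the number mapped in the library, so that levels of different genes can be set side by side. Libraries had 11679 to 12093 genes at 1 FPKM or more, and relative depth, read from the steps between low values, differed by up to 1.53-fold. Med13 itself had means of 5.52 ± 0.283 FPKM (SD, n = 3) for WT and 5.90 ± 0.702 FPKM in cKO-labelled hearts on chow. It was not called in any genotype comparison, so these gene-level values do not separate the genotypes, and every direction drawn between them rests on the labels. Exon-level values were not used here. Med13 overlaps Brip1os on the opposite strand over 37411 bases, and unstranded reads there cannot be assigned to either gene. Group means of Brip1os ran from 3.61 FPKM (WT PTU) to 4.31 FPKM (WT chow). The deposited Med13 locus begins at 86201360, whereas the annotated gene begins at 86267033, so its values may hold reads from outside the gene. Whether such reads hide a loss of Med13 signal was not tested. All 8 cardiomyocyte markers stood above 1 FPKM in all 18 libraries, and 5 of 6 skeletal muscle markers never did. Summed markers of other cells varied between libraries of one group: atrial markers from 536.1 to 10249 FPKM over all libraries, fibroblast and matrix markers from 577 to 1929 FPKM, and adipocyte markers from 35.2 to 161 FPKM. Nppa had a median of 2662 FPKM beside 2971 FPKM for the whole atrial sum. Cidea, the only adipocyte marker at 1 FPKM in all 18 libraries, had a median of 37.7 FPKM beside 44.4 FPKM for that sum. By these medians the sums rest largely on 1 gene each, and a higher sum need not mean more atrial or fat tissue. The highest sums hold more. Cidea reached at most 47.9 FPKM, far below the adipocyte sum of 161 FPKM in WT T3 replicate 2. That library also had the most matrix marker signal of its group (1875 FPKM) and the least cardiomyocyte marker signal (30687 FPKM). Beside Nppa, the atrial markers Myl7, Myl4 and Sln reached up to 1075, 882 and 497 FPKM. Macrophage markers moved with treatment, between 109.5 and 320 FPKM on PTU and between 327 and 450 FPKM with T3, and 6 of 7 rose with T3 in each genotype. In whole hearts, fewer cells of a type and less RNA per cell cannot be told apart.

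On chow, Esrra was the most abundant of the 10 genes by a wide margin, at 77.0 ± 5.45 FPKM (SD, n = 3) in WT and 82.4 ± 9.84 FPKM in cKO-labelled hearts. Ppargc1a followed at 21.8 ± 3.66 and 23.8 ± 6.98 FPKM, and then Ppara at 16.5 ± 3.01 and 17.95 ± 3.54 FPKM. Tfam, Ppard, Gabpa, Esrrg and Esrrb formed a run between 9.05 and 14.3 FPKM in which neighbours overlapped in both genotypes. Ppargc1b, at 7.30 and 7.43 FPKM, and Nrf1, at 4.41 and 4.14 FPKM, were lowest, and these 2 did not overlap on chow. Esrra stayed first in all 6 groups. On PTU the values of Esrra and Ppargc1a overlapped in WT hearts, Ppard dropped to rank 8 in both genotypes and Ppargc1b to rank 10. With T3 Ppard stood at rank 2 and Tfam at rank 3 by their means in both genotypes, ahead of Ppargc1a. The values of Tfam and Ppargc1a overlapped there in both genotypes, and in WT hearts those of Ppard overlapped both.

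**Figure D1:**
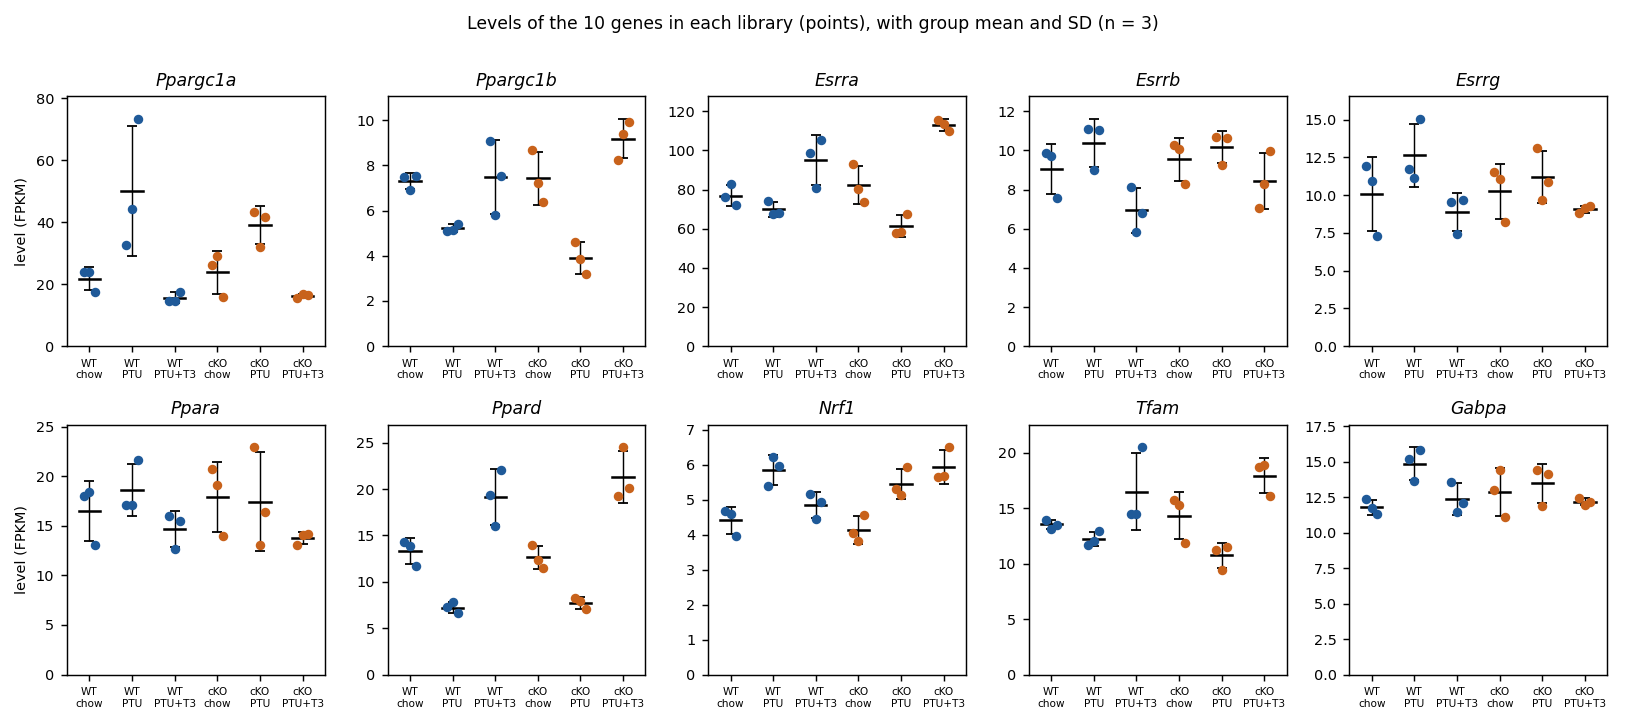
Each panel plots the FPKM of one gene (vertical axis, from 0) in every library, as points, for the 6 groups on the horizontal axis; black lines give the group mean and SD (n = 3), blue is WT and orange is hearts labelled cKO. Ppargc1a is highest in the PTU groups, from 32.0 to 73.3 FPKM, and Ppard lowest there, from 6.61 to 8.26 FPKM.

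Ppargc1a, the gene of the master coactivator of the programme, was higher when the hormone was withheld and fell when it was returned. It lies on chromosome 5 from 51454250 to 51567726, on the reverse strand. In WT hearts the 3 libraries held 23.8, 23.9 and 17.5 FPKM on chow, 32.6, 44.4 and 73.3 FPKM on PTU, and 14.5, 14.7 and 17.6 FPKM with T3. Every WT PTU value lay above every chow and T3 value, while the T3 and chow ranges overlapped slightly. Hearts labelled cKO held 26.3, 29.2 and 15.9 FPKM on chow, 43.4, 32.0 and 41.6 FPKM on PTU, and 15.6, 16.8 and 16.4 FPKM with T3. The order of the ranges was the same, with chow replicate 3 inside the range of the T3 hearts. Fold changes below are differences of group means of log2(FPKM + 1) from one limma fit over all 18 libraries, and a gene is called at an adjusted p under 0.05. Ppargc1a rose on PTU in WT hearts by 1.102 (SE 0.247, adjusted p = 0.00711) and stood 0.72 higher in hearts labelled cKO without being called (SE 0.247, adjusted p = 0.0588). With T3 after PTU it fell by 1.55 in WT hearts (adjusted p = 0.000143) and by 1.20 in hearts labelled cKO (adjusted p = 0.00100), both on the log2 scale. These T3 calls held under every alternative tried. The WT call on PTU ended when the library highest in matrix markers was left out of each group (log2 fold change 1.01, adjusted p = 0.0547, range over the alternatives 0.000772 to 0.0547).

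Marker levels moved with the single values of Ppargc1a. The library with the most cardiomyocyte marker signal held the highest Ppargc1a in 5 of 6 groups, among them WT PTU replicate 3 with 63403 FPKM of these markers. Between WT groups, 2 of 8 cardiomyocyte markers were called higher and none lower on PTU, and 1 higher and 4 lower with T3. Between groups of cKO-labelled hearts none was higher and 1 lower on PTU, and 3 higher and none lower with T3. The library with the most matrix marker signal had the lowest Ppargc1a in 4 of 6 groups, and so did the library with the most atrial marker signal, in the chow and PTU groups. In the 2 T3 groups the library with the most atrial marker signal instead held the highest Ppargc1a. In WT PTU hearts the 73.3 FPKM of replicate 3 came with the lowest sums of that group, 1661 FPKM of atrial and 577 FPKM of matrix markers, and the 32.6 FPKM of replicate 1 with 6949 FPKM of atrial markers. In a fit with the atrial or the matrix sum as a covariate, which was added after the data were seen, Ppargc1a was also called on PTU in hearts labelled cKO, with an adjusted p between 0.0124 and 0.21 over all alternatives of that comparison. The part of these markers in the level of Ppargc1a was otherwise not tested.

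Ppargc1a was set beside 20 other known induced targets of thyroid hormone. This list was chosen with earlier results of these data known, so its counts are a description and not independent support. On PTU, 13 of these 20 fell and none rose in each genotype, with a median log2 fold change of -0.63 in WT and -0.79 in cKO-labelled hearts. The median over all tested genes was close to 0 in both. With T3 after PTU, 17 of 20 rose and none fell in WT hearts (median 1.24) and 16 rose and none fell in hearts labelled cKO (median 1.26). In WT hearts 1102 of 12587 genes fell on PTU and 2802 rose with T3. In the main fit Ppargc1a was the one gene of the list of 21 called the other way, up on PTU in WT hearts and down with T3 in both genotypes. Over the alternatives 0 to 1 of the other 20 were called up on PTU in WT hearts, and 0 to 1 down with T3 in each genotype. Hr, which encodes a corepressor and is a direct target of the hormone receptor, went from 7.06 ± 0.947 FPKM on chow to 0.982 ± 0.55 FPKM on PTU and 53.1 ± 5.50 FPKM with T3 in WT hearts. Myh6, the fast myosin heavy chain, went from 3204 ± 793 to 239.5 ± 151 and back to 3024 ± 445 FPKM, and Ucp3, a mitochondrial carrier, from 18.8 ± 6.52 to 2.04 ± 0.404 and 44.2 ± 17.0 FPKM. The pacemaker channel Hcn2 rose with T3 by 3.29 in WT hearts and 2.96 in hearts labelled cKO on the log2 scale (SE 0.200 each). Kcna5 (0.46 on PTU and -0.35 with T3 in WT hearts) had estimates of the same signs as Ppargc1a without being called, as did Slc2a4, the insulin-responsive glucose transporter, in WT hearts (0.185 and -0.37). Of 9 genes that the hormone is known to repress, among them the slow myosin Myh7, WT hearts had 7 rises on PTU and 8 falls with T3, and hearts labelled cKO had 5 and 8. Over the alternatives the falls of induced genes on PTU numbered 9 to 15 in each genotype and their rises with T3 15 to 18.

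**Figure D2:**
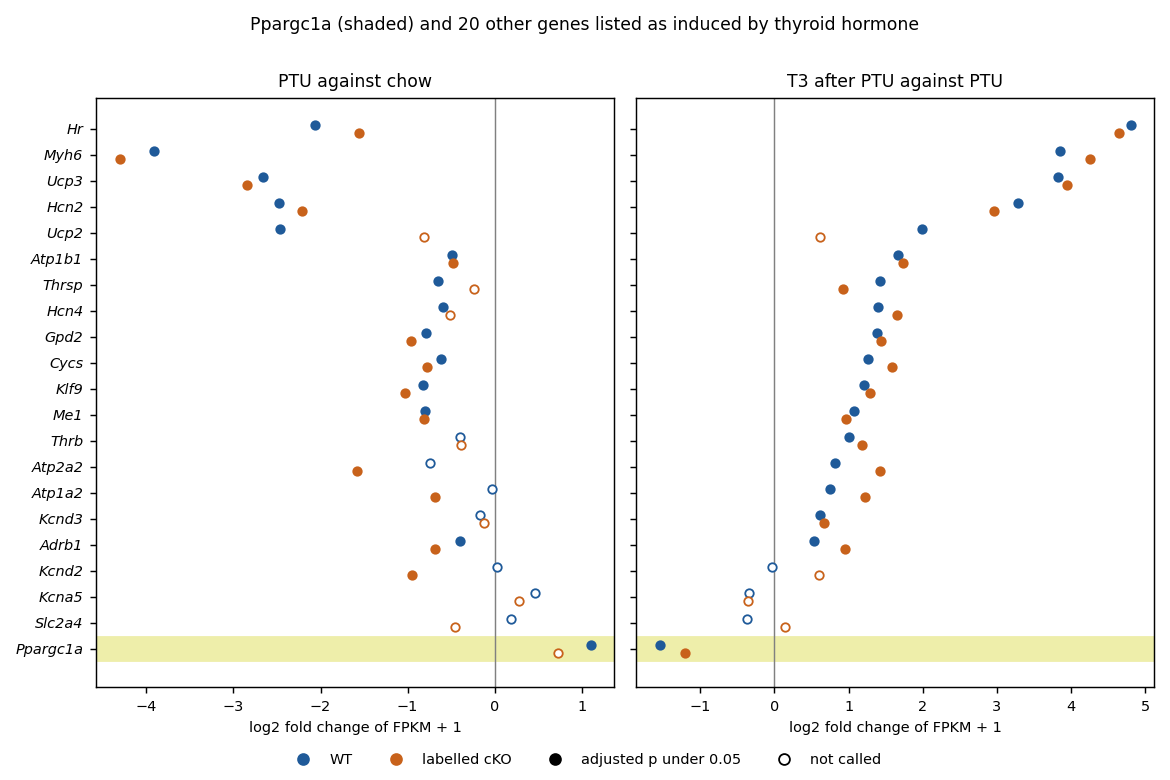
Log2 fold changes of FPKM + 1 (horizontal axes) for 21 genes listed as induced by thyroid hormone (rows), on PTU against chow at left and with T3 after PTU against PTU at right; filled points are called, blue is WT and orange is hearts labelled cKO. Ppargc1a, shaded, stands at 1.102 and 0.72 on PTU and at -1.55 and -1.20 with T3, on the other side of 0 from most of the list.

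The genes whose 6 group means most resembled those of Ppargc1a were found as a description, by the root mean square difference of the centred means on the log2 scale. The closest were Srebf1 (0.05), Zfp346 (0.067), Riiad1 (0.071), Ntn4 (0.072) and Cirbp (0.074). Srebf1, a regulator of lipid synthesis, stood at 11.2 ± 2.72, 24.9 ± 6.48 and 7.65 ± 0.888 FPKM on chow, PTU and T3 in WT hearts. Cirbp, a cold-inducible RNA-binding protein, stood at 43.7 ± 7.13, 98.4 ± 19.5 and 31.1 ± 4.96 FPKM. Since both were chosen for this pattern, no test is given for them.

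Ppargc1b, the sister coactivator on chromosome 18, was lower on PTU and higher with T3 in both genotypes. Its values in WT hearts were 7.47, 6.89 and 7.54 FPKM on chow, 5.09, 5.13 and 5.43 FPKM on PTU, and 9.08, 5.802 and 7.54 FPKM with T3. Those of cKO-labelled hearts were 8.69, 7.23 and 6.39 FPKM on chow, 4.61, 3.87 and 3.21 FPKM on PTU, and 8.24, 9.41 and 9.92 FPKM with T3. The PTU values lay below all others in each genotype. Ppargc1b fell on PTU in hearts labelled cKO (log2 fold change -0.79, SE 0.136, adjusted p = 0.0014) and rose by 1.06 with T3 (SE 0.136, adjusted p = 1.22e-05), and both calls held under every alternative. In WT hearts it fell by 0.42 on PTU (adjusted p = 0.0462) and rose by 0.43 with T3 (adjusted p = 0.0179). The WT call on PTU ended when any 1 of the 6 libraries compared was left out, with an adjusted p between 0.0696 and 0.118, and held under 6 of 18 alternatives (range 0.0122 to 0.259). The WT call with T3 ended without T3 replicate 1, which held the 9.08 FPKM (log2 fold change 0.29, adjusted p = 0.0981, range 0.00282 to 0.137) and without the libraries highest in atrial markers.

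The balance of the pair changed accordingly. The ratio of Ppargc1a to Ppargc1b in WT hearts was 3.19, 3.47 and 2.33 on chow, 6.41, 8.66 and 13.5 on PTU, and 1.60, 2.53 and 2.34 with T3. The ratio in cKO-labelled hearts was 3.03, 4.04 and 2.49 on chow, 9.41, 8.28 and 13.0 on PTU, and 1.89, 1.79 and 1.65 with T3. PTU ratios were above all others in both genotypes, and T3 ratios lay below all chow ratios in cKO-labelled hearts but not in WT hearts. The ratios were not tested. Means were 3.00, 9.52 and 2.16 in WT hearts and 3.19, 10.2 and 1.78 in hearts labelled cKO.

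Esrra encodes ERR alpha, the main partner of PGC-1 on genes of oxidative metabolism, and lies on chromosome 19 from 6910977 to 6921813, on the reverse strand. WT hearts held 76.2, 82.8 and 71.9 FPKM on chow, 74.4, 67.5 and 68.1 FPKM on PTU, and 98.8, 80.6 and 105.4 FPKM with T3. Hearts labelled cKO held 93.2, 80.1 and 73.9 FPKM on chow, 57.6, 58.6 and 67.6 FPKM on PTU, and 115.7, 113.6 and 109.9 FPKM with T3. All T3 values exceeded all PTU values in each genotype, and in hearts labelled cKO the 3 treatments did not overlap at all. Esrra rose with T3 by 0.43 in WT hearts (SE 0.107, adjusted p = 0.00436) and by 0.88 in hearts labelled cKO (SE 0.107, adjusted p = 7.68e-06), under every alternative. On PTU it fell by 0.42 on the log2 scale in hearts labelled cKO (adjusted p = 0.0154), a call that ended without chow replicate 1 (adjusted p = 0.0888) or PTU replicate 1 (adjusted p = 0.0618) of that genotype, in a range of 0.00397 to 0.0888. It also ended with the atrial marker sum as covariate (adjusted p = 0.0643) and with only the groups compared (adjusted p = 0.0646). In WT hearts the change on PTU was -0.13 (adjusted p = 0.423). Against chow, Esrra in hearts labelled cKO stood higher with T3 by 0.46 (adjusted p = 0.00692), not called without the libraries highest in atrial or in matrix markers (range 0.00312 to 0.105). Esrra shares 73 bases with Trmt112 on the other strand, and since the libraries do not mark strand, reads cannot be told apart there.

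The sister receptors went the other way or stayed uncalled. Esrrb encodes ERR beta (chromosome 12, 86361117 to 86521628, forward strand) and Esrrg encodes ERR gamma, which drives oxidative genes in heart (chromosome 1, 187608791 to 188214885, forward strand). In WT hearts Esrrb stood at 9.85, 9.71 and 7.58 FPKM on chow, 11.1, 8.98 and 11.1 FPKM on PTU and 8.14, 5.84 and 6.82 FPKM with T3. The T3 values lay below all PTU values, and Esrrb fell with T3 (log2 fold change -0.525, SE 0.137, adjusted p = 0.00556). That call ended without the libraries highest in atrial or in adipocyte markers (range 0.0018 to 0.0763). Esrrg stood at 11.7, 11.1 and 15.0 FPKM on PTU and 9.57, 7.46 and 9.66 FPKM with T3, and fell with T3 (log2 fold change -0.46, SE 0.167, adjusted p = 0.0352). This call ended without PTU replicate 1, PTU replicate 3 or T3 replicate 2, with an adjusted p of 0.0507, 0.152 and 0.141 (range 0.00564 to 0.152), and also without the libraries highest in adipocyte markers or with no filter on low values. In hearts labelled cKO the estimates with T3 were -0.26 for Esrrb and -0.27 for Esrrg (adjusted p = 0.137 and 0.203), and neither gene was called on PTU in either genotype. In all 6 groups the library with the most matrix marker signal held the lowest Esrrb, the lowest Esrrg and the lowest Ppara, and the part of those cells in these levels was tested only by the fits with a covariate and without those libraries.

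As a share of the FPKM of the 3 receptors, Esrra made up 77.7, 80.1 and 82.9% on chow, 76.5, 77.0 and 72.3% on PTU and 84.8, 85.8 and 86.5% with T3 in WT hearts. The shares in cKO-labelled hearts were 81.0, 79.1 and 81.8%, then 70.8, 75.6 and 75.9%, then 87.9, 86.7 and 85.1%. Within each genotype the 3 treatments did not overlap, lowest on PTU and highest with T3. No test was run on the share.

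Ppard was called on PTU and with T3 in both genotypes. It encodes PPAR delta, a fatty acid receptor active in muscle, and lies on chromosome 17 from 28232700 to 28301474, on the forward strand. WT hearts held 14.3, 13.9 and 11.7 FPKM on chow, 7.27, 7.79 and 6.61 FPKM on PTU, and 19.4, 16.0 and 22.04 FPKM with T3. Hearts labelled cKO held 14.0, 12.4 and 11.5 FPKM on chow, 8.26, 7.95 and 7.05 FPKM on PTU, and 19.2, 24.5 and 20.2 FPKM with T3. In both genotypes the 3 treatments did not overlap. Ppard fell on PTU in WT hearts (log2 fold change -0.80, SE 0.12, adjusted p = 0.000381) and in those labelled cKO (-0.64, SE 0.12, adjusted p = 0.00259). With T3 it rose by 1.28 (adjusted p = 6.92e-07) and 1.34 (adjusted p = 4.21e-07). These 4 calls held under every alternative. With T3 it also stood above chow, by 0.49 in WT hearts (adjusted p = 0.0137) and 0.71 in hearts labelled cKO (adjusted p = 0.000852). The WT call ended without chow replicate 3 (adjusted p = 0.0586) or T3 replicate 3 (adjusted p = 0.0737), in a range of 0.00657 to 0.188. It also ended without the libraries highest in atrial markers and with only the groups compared, and the authors' deposited table gives it a q of 0.0504. Macrophage marker sums were likewise low on PTU and high with T3, and their part in the level of Ppard was not tested. The deposited locus named Ppard starts at 28127351, before the annotated gene, so reads of upstream transcripts may be included.

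Likeness to Ppard over the 6 group means was closest for Gm5113 (root mean square difference 0.029 on the log2 scale), Zyg11b (0.031), Fgf1 (0.031), A430105I19Rik (0.04) and Phospho1 (0.041). Zyg11b, an adaptor of a ubiquitin ligase, stood at 12.0 ± 1.84, 6.75 ± 0.747 and 17.0 ± 0.953 FPKM on chow, PTU and T3 in WT hearts.

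Ppara encodes PPAR alpha, the receptor that controls fatty acid oxidation in heart (chromosome 15, 85734983 to 85802819, forward strand). It was not called in any of the 12 comparisons. WT hearts held 18.03, 18.4 and 13.0 FPKM on chow, 17.2, 17.1 and 21.7 FPKM on PTU and 16.0, 12.6 and 15.5 FPKM with T3. Hearts labelled cKO held 20.7, 19.1 and 14.0 FPKM, then 22.9, 13.0 and 16.4 FPKM, then 13.1, 14.1 and 14.2 FPKM. The largest difference in size was -0.34, with T3 against chow in hearts labelled cKO (95% confidence interval -0.73 to 0.05, adjusted p = 0.212), followed by -0.32 with T3 after PTU in WT hearts (-0.71 to 0.07, adjusted p = 0.167). In hearts labelled cKO, Ppara was called with T3 after PTU under 5 of 17 alternatives, among them leaving out the libraries highest in atrial or matrix markers (range 0.0113 to 0.747).

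With Ppard called and Ppara not, the order of the pair switched. The ratio of Ppara to Ppard in WT hearts was 1.26, 1.33 and 1.11 on chow, 2.36, 2.19 and 3.28 on PTU, and 0.824, 0.787 and 0.701 with T3. Hearts labelled cKO had ratios of 1.48, 1.54 and 1.21 on chow, 2.77, 1.64 and 2.33 on PTU, and 0.681, 0.575 and 0.705 with T3. Ppara was thus the more abundant receptor in all 12 chow and PTU libraries and Ppard in all 6 T3 libraries. No test was run on the ratio.

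**Figure D3:**
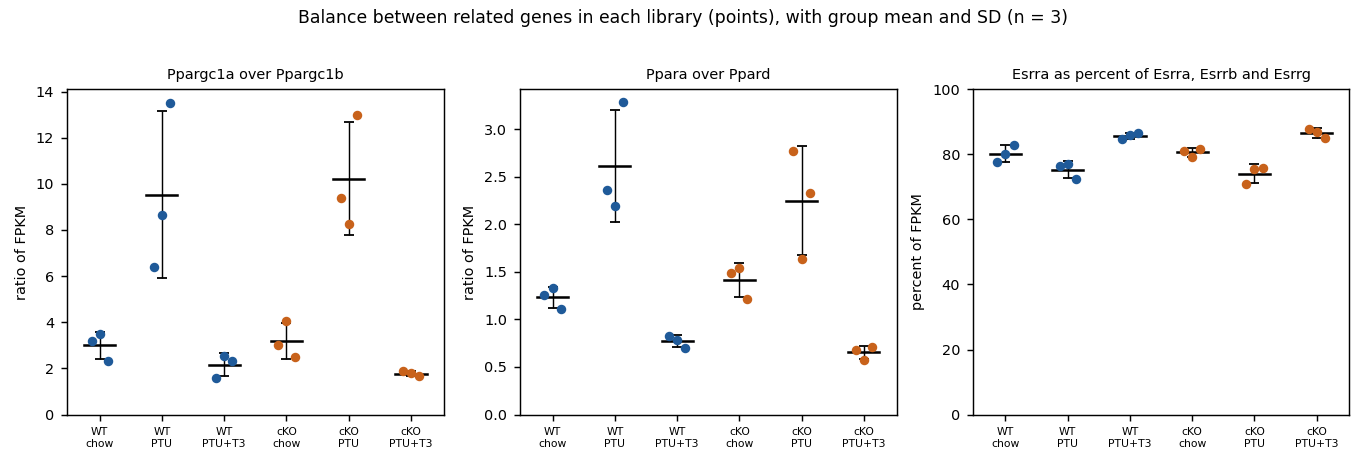
Ratios of FPKM between paired genes and the share of Esrra among the 3 ERR genes (vertical axes, from 0) in every library, as points, for the 6 groups; black lines give mean and SD (n = 3), blue is WT and orange is hearts labelled cKO. The ratio of Ppargc1a to Ppargc1b rises to 13.5 on PTU, and that of Ppara to Ppard lies under 1 in the 6 T3 libraries.

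Nrf1, nuclear respiratory factor 1, was the least abundant of the 10 genes on chow (chromosome 6, 30047988 to 30153458, forward strand). WT hearts held 4.68, 4.59 and 3.95 FPKM on chow, 5.38, 6.22 and 5.98 FPKM on PTU and 5.16, 4.44 and 4.93 FPKM with T3. Hearts labelled cKO held 4.04, 3.81 and 4.57 FPKM on chow, 5.30, 5.13 and 5.93 FPKM on PTU and 5.64, 5.68 and 6.50 FPKM with T3. PTU values lay above chow values without overlap in both genotypes. Nrf1 rose on PTU by 0.34 in WT hearts (SE 0.0913, adjusted p = 0.0171) and 0.33 in hearts labelled cKO (SE 0.0913, adjusted p = 0.0228). It also stood above chow with T3 in hearts labelled cKO, by 0.43 (adjusted p = 0.00356), and this last call held under every alternative. The WT call on PTU ended without chow replicate 3, PTU replicate 2 or PTU replicate 3 (adjusted p = 0.078, 0.0597 and 0.0540, range 0.0132 to 0.172). It also ended without the libraries highest in atrial, matrix or adipocyte markers and with only the groups compared, and the authors' deposited table gives it a q of 0.105. The call on PTU in hearts labelled cKO ended without chow replicate 1, chow replicate 2 or PTU replicate 3 (adjusted p = 0.0803, 0.0905 and 0.0822, range 0.0123 to 0.211), without the libraries highest in adipocyte markers, and with only the groups compared.

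Gabpa encodes the DNA-binding subunit of GABP (chromosome 16, 84834925 to 84863779, forward strand). It held 12.4, 11.7 and 11.3 FPKM on chow, 15.2, 13.6 and 15.8 FPKM on PTU and 13.6, 11.5 and 12.1 FPKM with T3 in WT hearts. It rose on PTU by 0.31 in WT hearts (SE 0.0972, adjusted p = 0.0396) and fell with T3 by 0.25 on the log2 scale (adjusted p = 0.0484). The first call held under 8 of 18 alternatives. That call ended without PTU replicate 1 or 3 or any 1 of the chow replicates, and without the libraries highest in atrial or adipocyte markers. It also ended with no filter on low values and with only the groups compared, and the authors' deposited table gives it a q of 0.786. The second call of Gabpa held under 6 of 18 alternatives, and that of Nrf1 with T3 after PTU in WT hearts (-0.23) under 5 of 18. In hearts labelled cKO Gabpa was not called, with 13.0, 14.4 and 11.1 FPKM on chow, 14.4, 11.9 and 14.1 FPKM on PTU and 12.4, 11.9 and 12.2 FPKM with T3. Gabpa shares 701 bases with Atp5j on the other strand, a gene of the ATP synthase at 1459 ± 169 FPKM in WT chow hearts, which was not called for PTU or T3 in WT hearts (0.06 and -0.04). Reads of the pair cannot be told apart where they overlap.

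Tfam, whose promoter stretch with a GABP site is printed above, encodes the packaging and transcription factor of mitochondrial DNA (chromosome 10, 71225464 to 71238280, reverse strand). WT hearts held 14.0, 13.2 and 13.5 FPKM on chow, 11.7, 12.1 and 12.9 FPKM on PTU and 14.5, 14.5 and 20.5 FPKM with T3. Hearts labelled cKO held 15.8, 15.3 and 11.9 FPKM on chow, 11.3, 9.46 and 11.5 FPKM on PTU and 18.7, 18.9 and 16.1 FPKM with T3. PTU values were the lowest of each genotype, and in hearts labelled cKO T3 values were the highest, without overlap. Tfam rose with T3 by 0.69 in hearts labelled cKO (SE 0.127, adjusted p = 0.000358), under every alternative, and by 0.39 in WT hearts (SE 0.127, adjusted p = 0.0213). The WT call ended without PTU replicate 1, PTU replicate 2 or T3 replicate 3, the library at 20.5 FPKM (adjusted p = 0.0672, 0.0517 and 0.13, range 0.00839 to 0.157), without the libraries highest in atrial or adipocyte markers, and with only the groups compared. On PTU it stood at -0.14 in WT hearts (adjusted p = 0.496) and at -0.38 in hearts labelled cKO (adjusted p = 0.0529).

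Counted together, 5 of the 10 genes were called on PTU in WT hearts, where limma called 16.8% of all 12587 genes. Ppargc1a, Nrf1 and Gabpa rose, and Ppargc1b and Ppard fell. With T3 after PTU in WT hearts 9 of 10 were called, beside 44.1% of all genes, but 4 without the libraries highest in atrial or in adipocyte markers. Ppargc1b, Esrra, Ppard and Tfam rose, and Ppargc1a, Esrrb, Esrrg, Nrf1 and Gabpa fell. In hearts labelled cKO, 4 were called on PTU beside 16% of all genes (Nrf1 up, and Ppargc1b, Esrra and Ppard down), and 5 with T3 after PTU beside 46.7%, a share near the background (Ppargc1b, Esrra, Ppard and Tfam up, and Ppargc1a down). That 5 became 8 with the atrial and 9 with the matrix marker sum as covariate, fits added after the data were seen. The comparisons of PTU and of T3 share the PTU libraries. With rises and falls in each of these comparisons, the 10 genes did not move as one block. Their median log2 fold change was 0.18 on PTU and -0.24 with T3 in WT hearts.

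With T3 against chow, only Ppard was called in WT hearts, beside 14.7% of all genes, and Esrra, Ppard and Nrf1 rose in hearts labelled cKO, beside 20.9%. By the authors' deposited table, in WT hearts, 3 of the 10 genes had a q under 0.05 on PTU (16.8% of its genes), 7 with T3 after PTU (35.6%) and 1 with T3 against chow (12.4%). The last was Ppargc1a, at a q of 0.0132 in the authors' deposited table, whereas limma gave -0.45 with an adjusted p of 0.248. Leaving out any 1 library gave 2 or 3 called genes on PTU in WT hearts, and 2 to 5 in hearts labelled cKO.

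**Figure D4:**
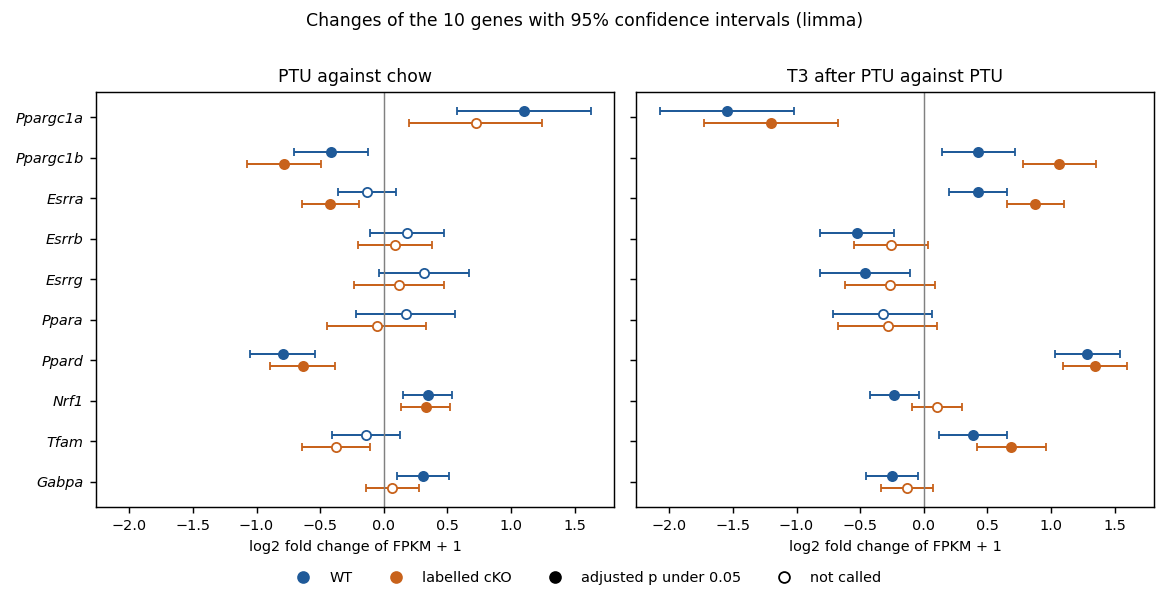
Log2 fold changes of FPKM + 1 (horizontal axes) of the 10 genes (rows) with 95% confidence intervals from limma, on PTU against chow at left and with T3 after PTU against PTU at right; filled points are called, blue is WT and orange is hearts labelled cKO. Ppard lies at -0.80 and -0.64 on PTU and at 1.28 and 1.34 with T3, and Ppara has open points throughout.

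Between genotypes none of the 10 genes was called. limma called 0% of 12587 genes for cKO against WT on chow, 0% on PTU, 0% on PTU with T3 and 0% averaged over treatments, and 0% for each interaction of genotype with PTU or with T3. At an unadjusted p under 0.05 the 10 genes gave 0, 1, 2 and 0 in the genotype comparisons and 0 and 3 in the interactions, beside 394, 491, 434 and 209 and then 805 and 821 of all genes. In the authors' deposited comparisons, none of the 10 had a q under 0.05 on each treatment, beside 0.664%, 0.95% and 0.991% of its genes (80, 117 and 121). On PTU, Ppargc1b had means of 5.22 ± 0.185 FPKM for WT and 3.90 ± 0.703 FPKM in cKO-labelled hearts, without overlap (log2 fold change -0.35, 95% confidence interval -0.64 to -0.07, adjusted p = 0.911). With T3, Nrf1 stood at 4.84 ± 0.368 and 5.94 ± 0.483 FPKM (0.25, interval 0.05 to 0.44, adjusted p = 0.979) and Esrra at 94.95 ± 12.8 and 113.1 ± 2.96 FPKM (0.26, interval 0.03 to 0.49, adjusted p = 0.979), both without overlap.

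The response of the genes to T3 was tested for a difference between genotypes in the same fit. The smallest p belonged to Ppargc1b, whose rise was 0.64 larger in hearts labelled cKO (SE 0.192, 95% confidence interval 0.23 to 1.04, unadjusted p = 0.0045, adjusted p = 0.696 by limma). Esrra followed at 0.45 (interval 0.13 to 0.77, adjusted p = 0.696) and Nrf1 at 0.34 (interval 0.06 to 0.61, adjusted p = 0.696). For Ppargc1a the difference in the T3 response was 0.35 (interval -0.40 to 1.09), and for Ppard 0.06 (interval -0.30 to 0.42). The difference in the PTU response was -0.38 for Ppargc1a (interval -1.12 to 0.36) and -0.285 for Esrra (interval -0.61 to 0.04), neither of them called. Calls made in only one genotype, such as Ppargc1a or Esrra on PTU, are therefore not shown to differ between genotypes, and the intervals are wide beside these values.

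Genes around the 10 were described by lists of their partners, regulators and targets. Among 18 partners and modifiers of PGC-1, WT hearts had 1 fall on PTU, and 4 rises and 2 falls with T3, whereas in hearts labelled cKO 1 rose and 3 fell on PTU and 7 rose and 3 fell with T3. Of all tested genes, 16.8% were called on PTU and 44.1% with T3 in WT hearts. In hearts labelled cKO these shares were 16% and 46.7%. Lpin1, a lipin that amplifies PGC-1 alpha and PPAR alpha activity, rose with T3 from 21.6 ± 3.96 to 36.4 ± 8.18 FPKM in WT and from 18.7 ± 1.26 to 51.8 ± 11.4 FPKM in cKO-labelled hearts. Sirt1, the deacetylase that activates PGC-1 alpha, fell with T3 by 0.39 and 0.40 on the log2 scale. Perm1, a muscle regulator of PGC-1 and ERR genes, fell on PTU by 0.62 and rose with T3 by 0.65 in hearts labelled cKO, and stood at -0.18 and 0.07 in WT hearts without being called. Leaving out T3 replicate 1 of WT lowered the rises there from 4 to 2.

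Among 20 tested genes that act upstream of PGC-1, 6 fell with T3 in each genotype, and 1 rose in WT hearts and 3 in hearts labelled cKO. These counts are no larger a share than the 44.1% and 46.7% of all genes called. On PTU 3 rose in each genotype, with 1 fall in WT hearts, beside 16.8% and 16% of all genes called. Klf15, a glucocorticoid-responsive factor of cardiac lipid metabolism, stood at 32.5 ± 8.79, 52.0 ± 8.77 and 17.6 ± 4.04 FPKM on chow, PTU and T3 in WT hearts, and was lower with T3 than on PTU in both genotypes (log2 fold changes -1.52 and -1.70). Flcn, folliculin, a repressor of PGC-1 alpha activity, stood at 25.5 ± 3.16, 37.8 ± 4.77 and 13.2 ± 0.784 FPKM and fell with T3 by 1.44 and 1.34 on the log2 scale. Prkag2, a regulatory subunit of the energy sensor AMPK, fell by 1.27 and 1.26 on the log2 scale. Mapk14, the p38 kinase that activates PGC-1 alpha, rose with T3 by 0.48 and 0.55. Among 14 partner nuclear receptors and related factors none rose with T3, and 5 fell in WT hearts and 4 in hearts labelled cKO. Both are smaller shares than the 44.1% and 46.7% of all genes called. Nr4a1, an immediate early receptor gene, led these falls at 5.45 ± 1.12, 22.5 ± 2.76 and 3.07 ± 1.23 FPKM on chow, PTU and T3 in WT hearts, and Rora, a lipid-sensing receptor, fell by 0.54 and 0.71 on the log2 scale. Without the library highest in adipocyte markers in each group, the falls in WT hearts numbered 2.

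Lists of genes that carry out mitochondrial biogenesis differed in their counts. Of 15 genes of protein import and mitochondrial dynamics, 11 rose in WT hearts and 12 in hearts labelled cKO and none fell, with median log2 fold changes of 0.505 and 0.71 against about 0 for all genes. Timm23, the channel of the inner membrane translocase, went from 213.6 ± 41.5 FPKM on PTU to 393 ± 57.7 FPKM with T3 in WT and from 173.8 ± 36.0 to 474 ± 40.2 FPKM in cKO-labelled hearts. The chaperonin Hspd1 rose by 0.81 and 1.02, Timm44, which anchors the import motor, by 0.84 and 1.17, and Tomm40, the outer membrane pore, by 0.62 and 1.001. On PTU none of the 15 was called in WT hearts (limma, and 0 to 5 fell under the alternatives), and 7 fell in hearts labelled cKO (0 to 8 under the alternatives). Under the alternatives 7 to 11 rose with T3 in WT hearts.

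Of 22 tested genes that copy, transcribe or process mitochondrial DNA and RNA, T3 gave 7 rises and 2 falls in WT hearts and 11 rises and 1 fall in hearts labelled cKO. The 9 of 22 called in WT hearts are a share near the 44.1% of all genes. Mterf4, a factor of mitochondrial ribosome assembly, went from 5.04 ± 0.257 to 10.4 ± 0.97 FPKM in WT hearts and rose by 0.91 and 1.08. Supv3l1 and Pnpt1, which degrade mitochondrial RNA, rose by 0.69 and 0.65 in WT hearts and by 1.06 and 1.02 in hearts labelled cKO. Tefm, the elongation factor of mitochondrial transcription, rose by 0.57 and 0.83. Tk2, the mitochondrial thymidine kinase, fell by 0.64 and 0.76 on the log2 scale. On PTU 2 fell in WT hearts, and 5 fell and 1 rose in hearts labelled cKO. The falls in hearts labelled cKO numbered 1 to 8 under the alternatives, and the rises with T3 in WT hearts 4 to 7.

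Listed targets of the receptors were counted next. Of 24 tested targets of PPAR alpha, PTU gave 6 falls and no rise in WT hearts and 12 falls and no rise in hearts labelled cKO. With T3 9 rose and 1 fell in WT hearts and 13 rose and 1 fell in hearts labelled cKO, while Ppara itself was not called. The 10 of 24 called with T3 in WT hearts are a share near the 44.1% of all genes. Pdk4, the kinase that shuts off pyruvate oxidation, stood at 146.7 ± 12.7, 41.1 ± 11.3 and 253 ± 139 FPKM on chow, PTU and T3 in WT hearts, Angptl4, an inhibitor of lipoprotein lipase, at 11.1 ± 5.39, 1.02 ± 0.362 and 8.54 ± 3.99 FPKM, and Cpt2, an enzyme of fatty acid entry into mitochondria, at 121.1 ± 21.7, 59.4 ± 11.8 and 171 ± 27.2 FPKM. Ucp3, also on this list, is named above among hormone-induced genes, so the lists are not independent of each other. The falls on PTU in hearts labelled cKO numbered 7 to 16 under the alternatives.

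Of 22 targets of the ERR receptors, T3 gave 4 rises and 2 falls in WT hearts and 14 rises and no fall in hearts labelled cKO, and whether these counts differ between genotypes was not tested. The 6 of 22 called with T3 in WT hearts lie below the 44.1% of all genes. Cycs, cytochrome c, went from 288 ± 54.4 to 688 ± 84.3 FPKM with T3 in WT and from 266 ± 25.7 to 802 ± 86.1 FPKM in cKO-labelled hearts. Cycs is also on the list of hormone-induced genes, so these 2 lists are not independent either. Idh3a, of the citric acid cycle, rose by 1.05 and 1.43, and Ckmt2, the mitochondrial creatine kinase, by 0.90 and 1.45. Cox6a2, the muscle subunit of cytochrome oxidase, went the other way in WT hearts, with log2 fold changes of 0.61 on PTU and -0.79 with T3. PTU gave 1 rise and 2 falls in WT hearts, 3 of 22 beside 16.8% of all genes, and 5 falls in hearts labelled cKO. The rises with T3 numbered 3 to 10 in WT hearts under the alternatives and 7 to 16 in hearts labelled cKO, with 7 when the library highest in atrial markers of each group was left out. Counts of each list are to be read beside the shares of all tested genes, 16.8%, 44.1%, 16% and 46.7%, given above.

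**Figure D5:**
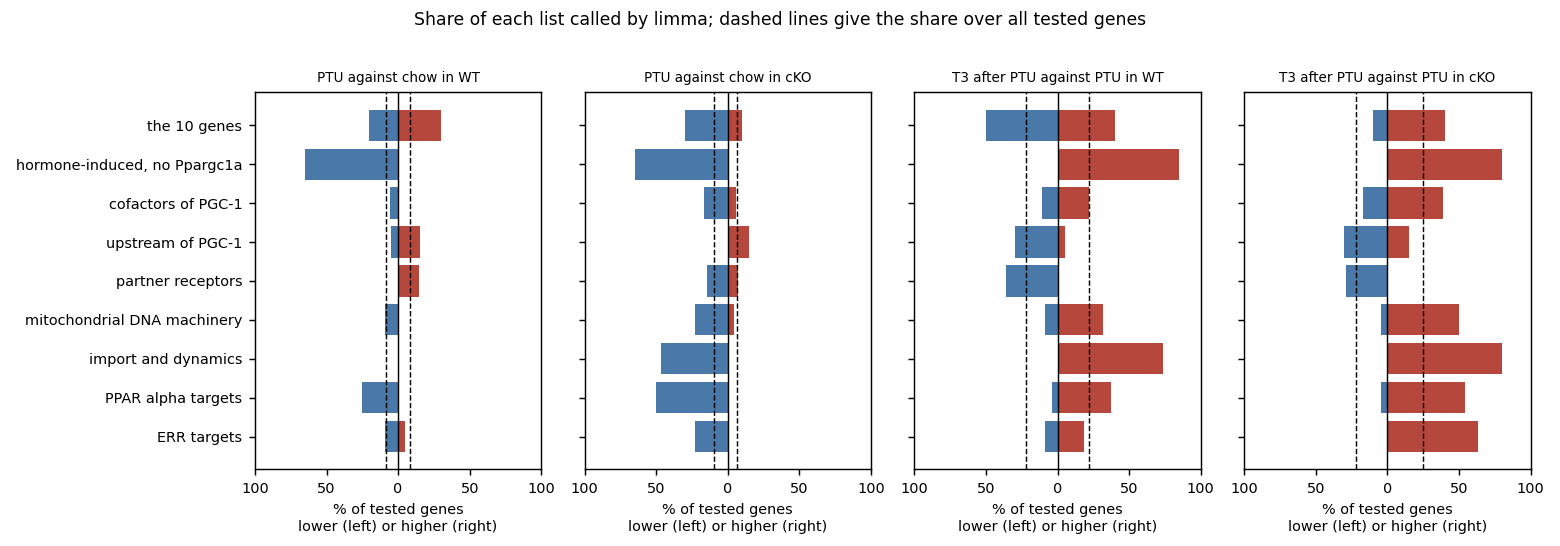
Percent of the tested genes of each list (rows) called higher (red, to the right) or lower (blue, to the left) by limma, for PTU against chow and T3 after PTU against PTU in WT and in hearts labelled cKO (panels); dashed lines give the share of all tested genes called in that direction. Lists of hormone-induced genes (17 of 20 and 16 of 20 higher) and of import and dynamics (11 of 15 and 12 of 15 higher) reach farthest to the right with T3.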

How the data were processed

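RNA sequencing of 18 mouse heart libraries (polyA selection, TruSeq version 2, strand not marked, per the labels' protocols) was deposited by the authors as gene-level FPKM values. Bowtie2, Cufflinks and the mm10 genome appear in the submitters' processing notes, without tool versions. From 6 pairwise tables that the authors deposited, group FPKM, p-values and q-values were read. Their log2 column, which holds infinite values, was not used. All sample columns matched a label (0 unmatched). A failed estimate marked 5 cells of 2 genes, which were left out.

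The 12587 genes that reached 1 FPKM in 3 or more libraries were analysed as log2(FPKM + 1), a scale that understates changes of low genes. limma 3.58.1 (R 4.3.3) modelled the 6 groups with a trended, robust prior and 12 residual degrees of freedom. Benjamini-Hochberg adjustment ran over all tested genes, separately for the 12 comparisons. The model was tested on simulated data. Read totals are not in the files, so the absolute depth stays unknown and counting intervals are not given. Steps between low values gave relative depth only. Since the libraries do not mark strand, counting could not separate reads of genes that overlap on opposite strands.

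The 10 genes, the gene lists and the marker lists were chosen with earlier results of these data known. Named genes are the 10, Med13, the genes of the hormone-induced list, up to 4 called genes in each direction of every other list with the largest changes, and the 5 genes most like Ppargc1a or Ppard. Some list genes that this rule would name are not reported here. Positions are from GENCODE M21 (GRCm38, the mm10 assembly), in which 98.9% of 23239 deposited loci overlapped the gene of the same name. Alternatives changed the pseudocount (0.1), the filter, the scaling, the prior, the sample weights or the libraries; fits with atrial or matrix marker sums as covariates were chosen after the data were seen.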

Additional observations from a re-analysis of the deposited data

How the results depend on the processing

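No paired analysis was possible because the labels give no replicate numbers that groups share. Over 2330 values of single genes under an alternative, 2219 kept their call, 87 lost it, 24 gained it and 0 of the called ones changed sign. The count of the 10 genes called on PTU in WT hearts (5) was 2 without the libraries highest in atrial, matrix or adipocyte markers, 3 with no filter on low values, with only the groups compared or by the authors' q-values, and 2 to 3 with 1 library left out. On PTU in hearts labelled cKO (4) it was 2 with only the groups compared and 2 to 5 with 1 library left out. With T3 after PTU in WT hearts (9) it was 4 without the libraries highest in atrial or adipocyte markers, and in hearts labelled cKO (5) it was 8 and 9 with the atrial and the matrix sum as covariate. With T3 against chow in WT hearts (1) it was 0 without the libraries highest in atrial markers or with only the groups compared, 3 with the matrix covariate, and 0 to 2 with 1 library left out. The causes were not tested. In the 6 genotype and interaction comparisons 0 of the 10 genes were called under any alternative run.

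Over all genes, the 2111 calls on PTU in WT hearts became 3438 with sample weights, 925 and 714 without the libraries highest in atrial and adipocyte markers, and 1379 and 1343 without WT chow replicate 1 and WT PTU replicate 1. The 2017 on PTU in hearts labelled cKO became 1300, 559, 1238 and 1071 without the atrial-high libraries, without the adipocyte-high libraries, with the atrial covariate and with only the groups compared, and 958, 1265 and 1260 without chow replicate 1, chow replicate 2 and PTU replicate 1. The 5545 with T3 after PTU in WT hearts became 3672 without the adipocyte-high libraries. The 1848 with T3 against chow in WT hearts became 713, 1204 and 475 without the atrial-, matrix- and adipocyte-high libraries, 934 with only the groups compared, and 1017 and 947 without chow replicate 1 and T3 replicate 3; the 2629 in hearts labelled cKO became 967, 1567 and 1258, and 1700 and 1626 without chow replicate 3 and T3 replicate 2. Genotype and interaction comparisons reached at most 8 calls by limma.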
